A study of Mus musculus with 4 samples.

Results

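The cell cycle genes described here were 39 genes followed across the immune cells of a mouse melanoma: 17 genes of S phase, when DNA is copied, 21 genes of G2 and mitosis (G2/M), when the copied chromosomes are separated, and Stmn1, which encodes the microtubule-destabilising protein stathmin and was counted in neither phase. They were chosen by gene symbol, and all 39 were found among the 27998 genes of the count tables. Cells came from tumours of B16F10-OVA, a mouse melanoma line that makes the model antigen ovalbumin, grown under the skin of wild-type C57BL/6 mice or of miR-155 T cell conditional knockout mice, in which the microRNA miR-155 is deleted in T cells. Tumours were taken at day 9 or day 12 and pooled within each group, live CD45-positive cells were sorted, and single-cell 3' RNA sequencing on the 10x platform gave 1 library per genotype and day, 4 libraries in all. The labels name neither the promoter that drove the deletion nor an antibody gate beyond CD45.

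A cell commits to division when cyclin D and cyclin E kinases inactivate the retinoblastoma protein and release E2F transcription factors, which switch on the genes of DNA replication. Genes of G2 and mitosis come on later, mainly through a repressor and activator system (DREAM, B-Myb and FoxM1) that acts through a promoter element called the cell cycle genes homology region, or CHR, often beside CCAAT boxes. Activated CD8 T cells are known for rapid rounds of division after they meet antigen, natural killer (NK) cells divide in response to cytokines, and mature dendritic cells and most tissue macrophages divide little. miR-155 is induced in activated T cells and is known to promote their expansion.

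The files held 11270 cell barcodes, of which 10943 were kept after filters on quality and doublets, and 132 barcode sequences occurred in more than 1 library. Cells were assigned to classes by unique molecular identifiers (UMIs, each 1 counted RNA molecule) of marker genes that included none of the 39. In the order wild-type day 9, knockout day 9, wild-type day 12 and knockout day 12, which is kept below for every set of 4 values, the CD8 T class held 749, 383, 244 and 65 cells, the NK class 179, 249, 478 and 282, the dendritic class 160, 274, 492 and 376, and the macrophage class 264, 1815, 1748 and 925. Mir155hg, the host transcript of miR-155, had 93, 0, 16 and 0 UMIs in CD8 T cells. In dendritic cells it had 1, 10, 19 and 56 UMIs and in NK cells 2, 3, 12 and 14, so it was present outside T cells in the knockout. The labels do not give the deleted stretch. The knockout libraries thus lacked this transcript in CD8 T cells at a depth that allows up to 1.55 (day 9) and 9.17 (day 12) CPM, the upper 95% Poisson limits, where CPM is a gene's UMIs scaled to the same total in every class and library. CD3 genes summed to 2209 to 3456 CPM in CD8 T cells and to at most 29.7 CPM in the other 3 classes. They were among the marker genes of the gate, so this difference was set by the assignment itself. The median CD8 T cell held 12492, 4919, 4712 and 4358 UMIs, so the first library stood apart in depth. The calcium-binding genes S100a8 and S100a9, markers of neutrophils, reached 465 CPM in CD8 T cells of the knockout at day 12 against at most 3.16 CPM in those of the other 3 libraries. The part of depth and of neutrophil RNA in the results was not tested.

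CD8 T cells held the most cell cycle RNA of the classes in the wild-type libraries. The 17 S phase genes together made up 1858, 649.7, 1267 and 571.5 CPM of CD8 T RNA, and the 21 G2/M genes 2065, 369.5, 1391 and 753 CPM. Both wild-type values lay above both knockout values for each list. In NK cells the same sums were 414, 572, 875 and 999.7 CPM for S phase and 616, 474, 894 and 801 CPM for G2/M, so the day 12 values lay above the day 9 values in both genotypes. Dendritic cells held 482, 333, 463 and 335 CPM of S phase RNA and 625, 312, 603 and 318 CPM of G2/M RNA, lower in both knockout libraries. Macrophages held the least, 169 to 227 CPM for S phase and 107 to 232 CPM for G2/M.

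**Figure D1:**
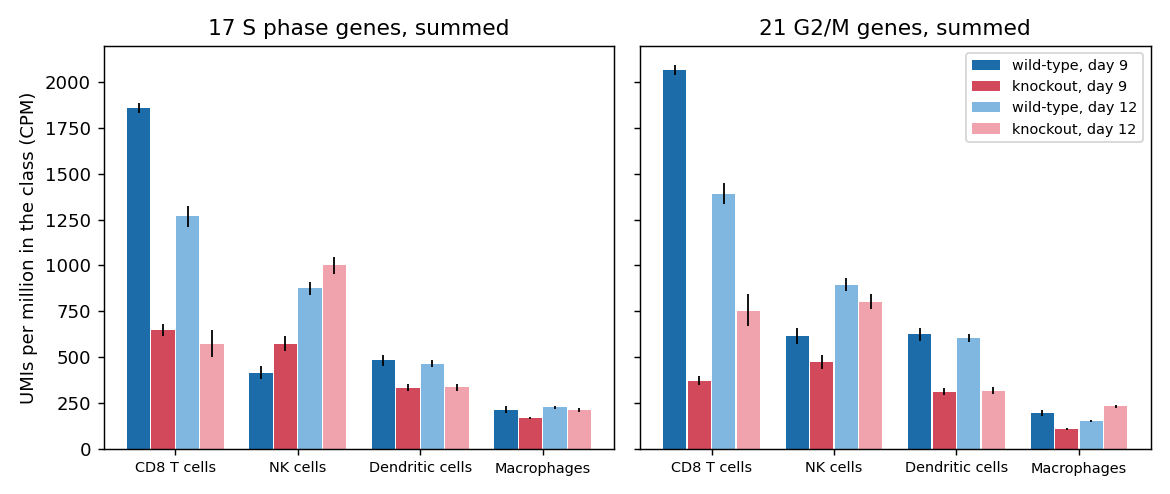
Summed CPM of the 17 S phase genes (left) and the 21 G2/M genes (right) in each cell class, 1 bar per library, with 95% Poisson intervals that cover counting error only. CD8 T cells of the wild-type at day 9 have the highest bars, 1858 and 2065 CPM, and the G2/M bars of macrophages stay between 107 and 232 CPM.

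Compared within libraries, CD8 T cells exceeded macrophages for all 39 genes (median log2 difference 2.60, against 0.04 over all genes tested). All 39 passed an adjusted p of 0.05 in edgeR's quasi-likelihood test on the 16 class sums, where 31.3% of all genes were higher in CD8 T cells. Against dendritic cells 34 of 39 passed with a median of 1.27, beside 26.9% of all genes. Tpx2, Aurka, Gins2, Aurkb and Top2a missed the threshold there. Against NK cells 7 of 39 passed, beside 5.61% of all genes. These were Hells, a chromatin remodeller of S phase, and the G2/M genes Bub1, Ccna2, Cdca8, Cenpa, Ccnb2 and Ccnb1, with log2 differences between 0.83 (Cenpa, SE 0.24) and 1.33 (Bub1, SE 0.32). No member passed against NK cells once the wild-type library of day 9 or that of day 12 was left out, and 15 passed without the knockout library of day 12. All 39 differences from NK cells were above 0, with a median of 0.78. These are averages over both genotypes. In the knockout the G2/M sum was higher in NK than in CD8 T cells on both days. It was 474 against 369.5 CPM at day 9 and 801 against 753 CPM at day 12. The S phase sum of knockout NK cells was higher at day 12, 999.7 against 571.5 CPM. At day 9 it was lower, 572 against 649.7 CPM.

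In CD8 T cells the summed S phase and G2/M genes were lower in both knockout libraries. At day 9 the knockout held 0.350 of the wild-type S phase level (95% interval 0.332 to 0.368) and 0.179 of the G2/M level (0.167 to 0.191). At day 12 the ratios were 0.451 (0.392 to 0.517) and 0.541 (0.478 to 0.611). These intervals cover counting error only, since each group is 1 library of pooled tumours, and fewer dividing cells and less of each RNA per cell cannot be told apart in such sums. At day 9 all 39 genes were at least 1.5-fold lower in the knockout, as were 26.2% of all genes with 20 or more UMIs. At day 12 this held for 30 of 39, beside 22.0% of such genes. Both wild-type libraries lay above both knockout libraries for 36 of 39 genes, all but Mcm2, Mcm4 and Kif11, and for 30.3% of all genes.

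A fit over the 4 libraries with genotype and day as terms called 34 of the 39 genes lower in knockout CD8 T cells and none higher (edgeR quasi-likelihood test, adjusted p over 8403 genes). Of all genes tested, 4.33% were called lower and 3.63% higher. The calls took in 13 of 17 S phase genes, 20 of 21 G2/M genes and Stmn1, with a median log2 change over the members of -1.68 against 0.01 over all genes. Mcm2, Mcm4, Mcm7, Cdc6 and Bub1 missed the threshold. The fit has 1 residual degree of freedom and borrows its spread across genes. With DESeq2 14 members were called, and 10 with no term for day. Fits without 1 library also had no term for day and kept 1 library of a genotype. Whether the calls hold without a library therefore cannot be told. The median log2 change was -1.31 without the knockout library of day 9 and -1.89 without that of day 12.

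**Figure D2:**
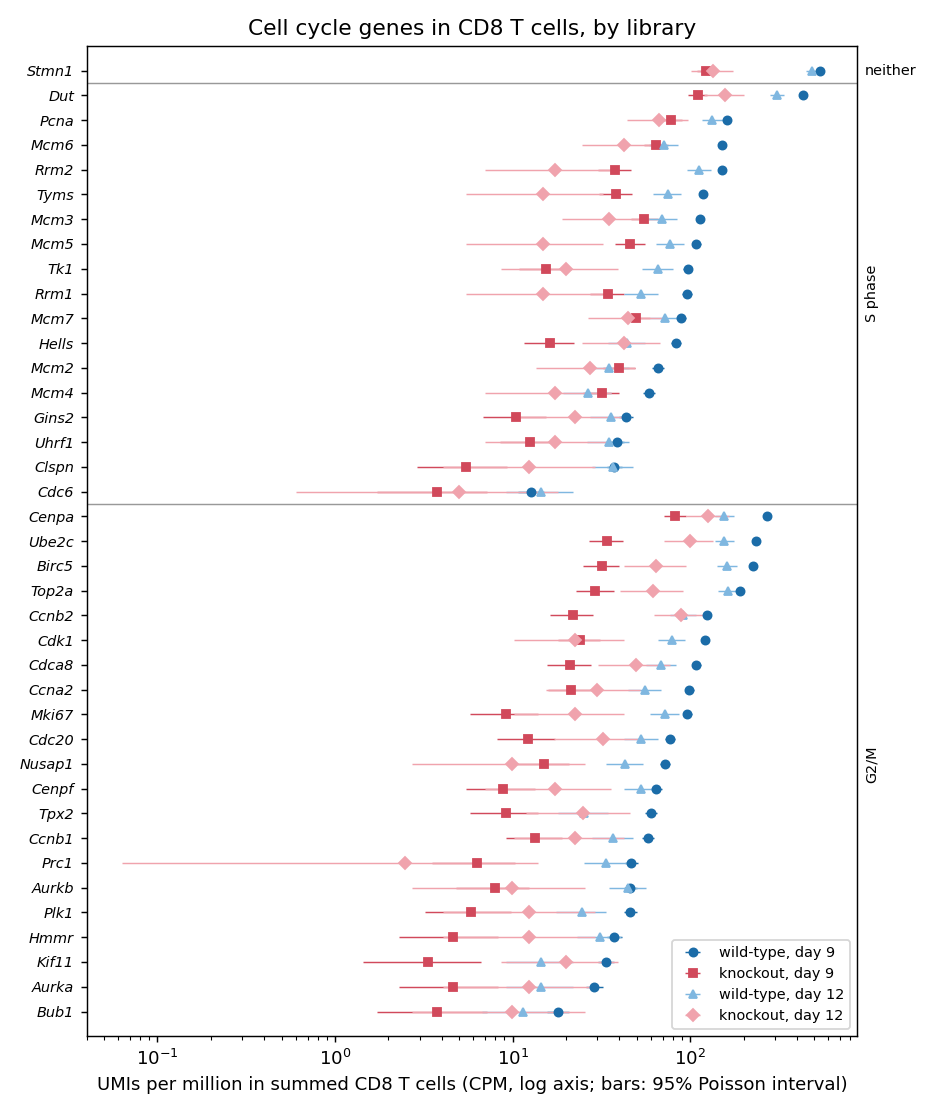
Level of each of the 39 genes in CD8 T cells, in CPM on a log axis, 1 symbol per library, with 95% Poisson intervals. Both blue wild-type symbols lie to the right of both red knockout symbols for 36 genes, and the knockout at day 12 has the widest intervals.

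The helicase genes Mcm2, Mcm3, Mcm4, Mcm5, Mcm6 and Mcm7 encode the ring that unwinds DNA at replication forks. Mcm3 stood at 114, 55.3, 69.6 and 34.8 CPM, and fell by 0.89 on the log2 scale (SE 0.24, adjusted p = 0.0133). Mcm5 stood at 108, 46.1, 77.2 and 14.9 CPM, and Mcm6 at 151, 64.5, 70.9 and 42.2 CPM, both called lower. Mcm2, at 66.0, 39.8, 34.8 and 27.3 CPM, had its knockout value of day 9 above its wild-type value of day 12. Its log2 change was -0.48 (SE 0.27, adjusted p = 0.34), the smallest of the 39. Mcm4 (59.0, 31.8, 26.6 and 17.4 CPM) overlapped between genotypes in the same way. Mcm7 did not overlap, at 88.8, 49.9, 72.1 and 44.7 CPM, but its log2 change of -0.64 (SE 0.23) missed the threshold with an adjusted p of 0.0917. Cdc6, which loads that ring, was counted at 12.7, 3.77, 14.6 and 4.97 CPM, with only 9 and 2 UMIs in the knockout libraries. Gins2, a subunit of the active helicase, fell from 43.5 to 10.5 CPM at day 9 and from 36.1 to 22.4 CPM at day 12 (adjusted p = 0.00389 over both days).

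The 5 genes that supply nucleotides had log2 changes from -2.26 to -1.40, against -1.35 to -0.48 for the Mcm genes, and the sets were not tested against each other. Rrm2, the regulated subunit of ribonucleotide reductase, stood at 150, 37.7, 113 and 17.4 CPM, a log2 change of -2.02 (SE 0.25, adjusted p = 1.26e-06). Tk1, thymidine kinase, stood at 97.3, 15.5, 65.8 and 19.9 CPM, a change of -2.26 (SE 0.29). Tyms, thymidylate synthase, stood at 119, 38.1, 74.7 and 14.9 CPM. In each of these 3 genes the wild-type values were well apart from the knockout values. Rrm1, the constant reductase subunit, had 96.3, 34.4, 53.1 and 14.9 CPM and Dut, which removes dUTP, had 431, 110, 309 and 156 CPM, both called lower. Pcna, the sliding clamp of the polymerases, stood at 162, 77.9, 134 and 67.1 CPM, a smaller change of -0.90 (SE 0.22). Clspn, an adaptor of the replication checkpoint, had the largest change among S phase genes at -2.28 (SE 0.39), from 37.5 to 5.45 CPM at day 9 and from 36.7 to 12.4 CPM at day 12. The chromatin genes Hells and Uhrf1, which act in DNA methylation, were also called lower, with Hells at 83.1, 16.3, 44.3 and 42.2 CPM and so near its wild-type level at day 12 on 17 UMIs.

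Among G2/M genes, the core mitotic kinase gene Cdk1 stood at 122, 23.9, 79.1 and 22.4 CPM, a log2 change of -2.06 (SE 0.26, adjusted p = 1.69e-06). Its cyclin partners were called lower as well. Ccna2 had 99.1, 21.4, 55.7 and 29.8 CPM, Ccnb1 had 57.9, 13.4, 36.7 and 22.4 CPM, and Ccnb2 had 125, 21.8, 91.7 and 89.5 CPM. The Ccnb2 values at day 12 lay close together. Mki67, which encodes the proliferation antigen Ki-67 that coats mitotic chromosomes, stood at 96.7, 9.22, 72.1 and 22.4 CPM and fell by 2.72 (SE 0.32, adjusted p = 5.64e-07). Top2a, the topoisomerase that untangles sister chromosomes, stood at 191, 29.3, 163 and 62.1 CPM and fell by 2.06 (SE 0.26).

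The chromosomal passenger complex corrects chromosome attachment and drives the last steps of division. Its kinase gene Aurkb stood at 46.1, 7.96, 44.9 and 9.94 CPM, its survivin gene Birc5 at 227, 31.8, 162 and 64.6 CPM, and its borealin gene Cdca8 at 109, 20.9, 69.0 and 49.7 CPM. All 3 were called lower in the knockout, and their wild-type and knockout values did not overlap. Of the other mitotic kinases, Plk1 (46.1, 5.87, 24.7 and 12.4 CPM) and Aurka (28.9, 4.61, 14.6 and 12.4 CPM) were called lower. Bub1, of the spindle checkpoint, had a log2 change of -1.496 (SE 0.55) that missed the threshold (adjusted p = 0.101) on 9 and 4 UMIs in the knockout libraries.

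Ube2c and Cdc20 work with the anaphase-promoting complex, which destroys cyclin B. Ube2c stood at 236, 33.9, 156 and 99.4 CPM and Cdc20 at 77.0, 12.2, 53.1 and 32.3 CPM, both called lower. Cenpa, the histone of the centromere, had the smallest change among G2/M genes, -0.98 (SE 0.25, adjusted p = 0.0108), at 271, 82.1, 156 and 127 CPM. Cenpf, of the outer kinetochore, stood at 64.5, 8.80, 53.1 and 17.4 CPM, a change of -2.36 (SE 0.33). The 2 centromere genes thus differed widely in size of change.

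The 5 spindle genes bundle, move or nucleate microtubules. Prc1, the bundler of the central spindle, stood at 46.8, 6.28, 33.5 and 2.48 CPM, and its change of -2.85 (SE 0.39, adjusted p = 5.06e-06) was the largest of the 39, resting on 15 and 1 UMIs in the knockout. Nusap1 (72.2, 15.1, 43.0 and 9.94 CPM) and Hmmr (37.5, 4.61, 31.0 and 12.4 CPM) were called lower with no overlap. Tpx2 stood at 60.4, 9.22, 25.3 and 24.9 CPM, level at day 12. The motor gene Kif11, at 33.6, 3.35, 14.6 and 19.9 CPM, was the one G2/M gene whose groups overlapped, being higher in the knockout at day 12 on 8 UMIs. Stmn1 stood at 540, 123, 486 and 134 CPM, a change of -1.88 (SE 0.23, adjusted p = 1.26e-06), with both knockout libraries far below both wild-type libraries.

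Genes outside the 39 that work in the same steps were counted in this fit, where 4.33% of all genes were called lower and 3.63% higher. Of 27 further S phase genes tested, 10 were called lower and none higher, among them Gmnn, the inhibitor of origin licensing (125, 38.5, 99.3 and 49.7 CPM), and the flap nuclease gene Fen1 (67.1, 29.7, 58.8 and 32.3 CPM). Of 30 further G2/M genes, 17 were called lower and none higher, with Hmgb2 at 1505, 414, 1418 and 860 CPM and Cks2 at 187, 57.8, 148 and 67.1 CPM. Of 13 regulators of the step into S phase, 6 were called lower, including Cdk6 (55.3, 20.5, 46.2 and 22.4 CPM), the cyclin E gene Ccne1 and E2f1 (35.7, 7.12, 23.4 and 9.94 CPM). The regulator Myc was called higher, at 25.0, 50.7, 22.1 and 47.2 CPM. Of 12 brakes on division, 2 were called higher and 2 lower. The antiproliferative genes Btg1 (384, 870, 445 and 929 CPM) and Btg2 (86.4, 166, 127 and 231 CPM) were higher in both knockout libraries, and the kinase inhibitor genes Cdkn2c and Cdkn2a were lower.

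The E2F and CHR elements described above were looked for in RefSeq promoter windows (GRCm38.p6, 250 bases before to 50 after each start), which matched 33 of the 39 genes in 36 windows. Mcm4, Gins2, Ccna2, Aurkb, Tpx2 and Stmn1 had no window. Motifs were searched on both strands as TTTGGCGC or TTTCGCGC for E2F, TTTGAA or TTTAAA for CHR, and CCAAT. An E2F motif stood in 6 of 17 S phase windows (35.3%) and in 1 of 19 G2/M windows (5.26%), against 0.813% of all 32851 windows. A CHR motif stood in 17 of 19 G2/M windows (89.5%) and 5 of 17 S phase windows (29.4%), against 27.6% of all. CCAAT, with or without CHR, stood in 17 of 19 G2/M windows (89.5%) and 12 of 17 S phase windows (70.6%), against 37.4% of all. Both CHR and CCAAT stood in 16 of 19 G2/M windows (84.2%) and 4 of 17 S phase windows (23.5%), against 10.7% of all. A match is a run of letters and was not tested as a binding site.

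The windows of the 2 S phase genes with an E2F motif and the 2 G2/M genes with a CHR motif that had the most UMIs are printed on the gene's strand, with every motif match in capitals. Mcm6 lies at chr1:128359656-128359955 and Mcm3 at chr1:20820263-20820562, both on the minus strand. Cenpa lies at chr5:30666636-30666935 and Birc5 at chr11:117848987-117849286, both on the plus strand.
Mcm6: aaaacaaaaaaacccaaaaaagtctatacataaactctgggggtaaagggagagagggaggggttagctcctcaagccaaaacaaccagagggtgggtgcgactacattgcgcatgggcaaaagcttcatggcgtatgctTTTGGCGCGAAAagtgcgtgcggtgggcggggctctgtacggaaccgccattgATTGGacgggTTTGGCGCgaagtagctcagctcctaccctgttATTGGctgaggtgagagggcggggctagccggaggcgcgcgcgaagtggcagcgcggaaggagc
Mcm3: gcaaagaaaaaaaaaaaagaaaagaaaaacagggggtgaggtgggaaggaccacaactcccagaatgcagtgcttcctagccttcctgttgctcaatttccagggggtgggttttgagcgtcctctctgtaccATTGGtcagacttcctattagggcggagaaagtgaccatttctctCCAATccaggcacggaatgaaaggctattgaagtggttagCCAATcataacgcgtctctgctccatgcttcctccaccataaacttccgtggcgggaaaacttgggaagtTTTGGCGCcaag
Cenpa: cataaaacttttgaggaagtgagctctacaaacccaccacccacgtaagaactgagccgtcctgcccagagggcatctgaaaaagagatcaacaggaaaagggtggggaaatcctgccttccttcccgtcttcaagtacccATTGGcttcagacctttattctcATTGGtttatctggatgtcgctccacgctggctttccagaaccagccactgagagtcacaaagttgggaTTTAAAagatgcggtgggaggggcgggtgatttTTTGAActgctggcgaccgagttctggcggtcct
Birc5: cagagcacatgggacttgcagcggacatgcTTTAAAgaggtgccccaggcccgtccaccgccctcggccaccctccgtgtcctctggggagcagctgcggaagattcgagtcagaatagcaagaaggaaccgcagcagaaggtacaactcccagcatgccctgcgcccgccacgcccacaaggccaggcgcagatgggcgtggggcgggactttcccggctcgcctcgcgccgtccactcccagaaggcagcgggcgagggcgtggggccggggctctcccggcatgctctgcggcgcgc
Counted from the start as base 1, with negative positions before it, the E2F matches of Mcm6 begin at -110, -106 and -47, the first 2 overlapping on opposite strands, and that of Mcm3 begins at 39. The CHR matches of Cenpa begin at -17 and 17, and that of Birc5 at -220. Capitals that belong to neither motif mark CCAAT on either strand.

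Short stretches around the motif of other members, chosen after the values were seen, let the letters beside the motif be compared. The E2F match is in capitals with 10 bases on each side, written so that the motif reads 5′ to 3′, which for Mcm5 and Clspn is the strand opposite the gene. Mcm5 has another match on the gene's strand at -153, which overlaps the one in capitals and runs on into the lower case.
Mcm5: ggctggacgtTTTGGCGCgaaagttctt
Mcm7: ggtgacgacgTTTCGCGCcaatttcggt
Uhrf1: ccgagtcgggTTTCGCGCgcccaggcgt
Clspn: aagttcgagcTTTCGCGCccagacgcgg
The matches of Mcm7 (chr5:138171850-138171877) and Clspn (chr4:126556991-126557018) begin at 17 and 22, and those of Mcm5 (chr8:75109350-75109377) and Uhrf1 (chr17:56304118-56304145) at -149 and -185.
The CHR match nearest the start is shown in the same way for 4 further G2/M genes with many UMIs, with Ube2c and Top2a on the strand opposite the gene.
Ube2c: gccgcccgcgTTTGAAttgcaaccct
Top2a: cctagtttcaTTTGAAcctttatcta
Ccnb2: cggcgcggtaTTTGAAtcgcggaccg
Cdk1: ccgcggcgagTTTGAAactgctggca
All 4 printed matches carry the TTTGAA form and begin at -29, -23, 5 and -15, in the order printed. In Ccnb1, Plk1 and Aurka, which are not printed, the match nearest the start was TTTAAA. Ube2c lies at chr2:164769890-164769915, Top2a at chr11:99024197-99024222, Ccnb2 at chr9:70421535-70421560 and Cdk1 at chr10:69352912-69352937.

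How the genes of each list varied together was described cell by cell in the wild-type CD8 T cells of day 9. Those cells held more UMIs of the lists than any other class and library. No measure of phase outside the lists was used. Each cell was thinned to 3000 UMIs and counted as past a list's limit with 3 or more UMIs of it, and each gene was read in groups made from the other genes. Cdc6 stood at 18.8 CPM in cells past the S phase limit only and at 1.28 CPM in cells past the G2/M limit only. Cenpf showed the opposite order, 3.85 and 88.0 CPM, as did Hmmr (3.37 and 66.3 CPM) and Cdc20 (11.1 and 187 CPM). Rrm1 hardly differed, at 71.2 and 69.3 CPM. All 17 S phase genes were lower in the G2/M-only cells than in the S-only cells and all 21 G2/M genes were higher, with Top2a (82.3 and 142 CPM) and Cdk1 (56.5 and 129 CPM) the least so. In these cells 13 of the 17 S phase genes and 16 of the 21 G2/M genes were highest in cells past both limits. The S-only to G2/M-only order also held in the wild-type NK and dendritic cells of day 12 for 16 of 17 S phase genes each, with Rrm2 (NK) and Tk1 (dendritic) going the other way, and for all 21 G2/M genes.

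**Figure D3:**
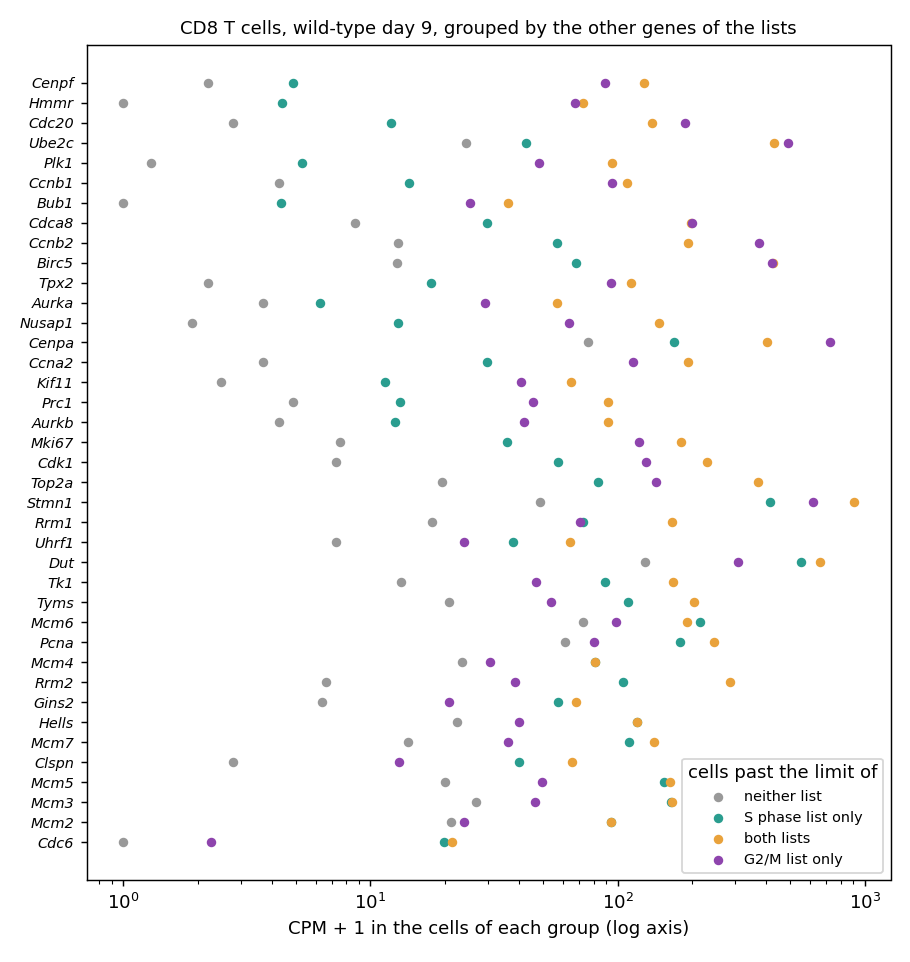
Level of each gene, as CPM plus 1 on a log axis, in wild-type CD8 T cells of day 9 grouped by the other genes of the lists. Genes are ordered by their ratio of G2/M-only to S-only cells, from Cdc6 (18.8 against 1.28 CPM in S-only and G2/M-only cells) to Cenpf (3.85 against 88.0 CPM).

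The share of cells past either limit in CD8 T cells was 53.9%, 10.9%, 33.0% and 12.5%, with 95% Clopper-Pearson intervals of 50.3 to 57.6, 7.90 to 14.4, 26.6 to 39.9 and 5.18 to 24.1. The intervals of each day did not overlap between genotypes. Without thinning the shares were 77.2%, 24.5%, 35.7% and 23.1%, and the intervals of day 12 then overlapped (29.7 to 42.0 and 13.5 to 35.2). These shares rest on 404 of 749, 41 of 378, 67 of 203 and 7 of 56 cells with 3000 UMIs. Mature dendritic cells, which are known to divide little, gave 2.86%, 1.59%, 0.926% and 1.89% as a background, at median depths of 7448 to 9437 UMIs. Cells past a limit were also deeper: in the first library their median was 18151 UMIs against 8290 in its other cells.

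**Figure D4:**
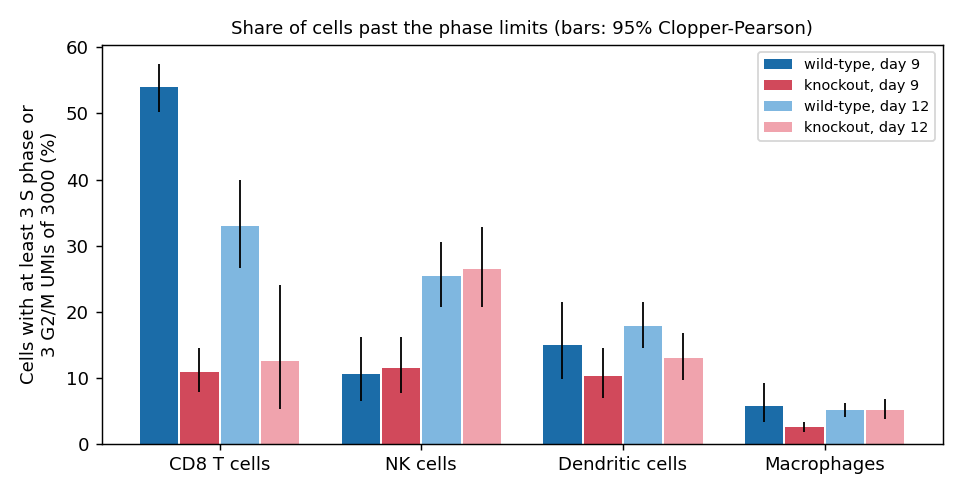
Percentage of cells with 3 or more S phase or 3 or more G2/M UMIs after thinning to 3000 UMIs, by class and library, with 95% Clopper-Pearson intervals for counting error only. CD8 T cells reach 53.9% and 33.0% in the wild-type and 10.9% and 12.5% in the knockout, and macrophages stay at or below 5.68%.

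The 2 phases did not shift alike in CD8 T cells. G2/M genes made up 52.6%, 36.3%, 52.3% and 56.9% of the UMIs of both lists together, so the knockout of day 9 stood lowest and the other 3 libraries lay near each other. In that library 28 of 41 cells past a limit were past the S phase limit only, against 130 of 404 in the wild-type of the same day. At day 12 the value of the knockout rests on few cells: 3 of its 65 CD8 T cells held 50% of the UMIs of both lists, and 5 held 82.6%. The same 50% was spread over 92 cells in the wild-type at day 9, 8 in the knockout at day 9 and 17 in the wild-type at day 12. With classes taken from clusters made without cell cycle genes, the 4 values were 53.7%, 42.6%, 54.9% and 42.4%, which puts both knockout libraries below both wild-type libraries.

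CD8 T cells of the wild-type had lower levels at day 12 than at day 9, with ratios of 0.682 (0.651 to 0.714) for S phase and 0.674 (0.645 to 0.704) for G2/M. In the knockout the S phase ratio was 0.880 (0.763 to 1.011) and the G2/M ratio 2.04 (1.78 to 2.32). Over both genotypes 1 member, Mcm6, was called lower at day 12 (log2 change -0.90, SE 0.24, adjusted p = 0.044), beside 0.702% of all genes. That call was lost with DESeq2. Without the wild-type library of day 9, the fit held 1 library of that day and no term for genotype, so day and genotype could not be told apart.

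In NK cells 12 members were called by day and none by genotype. The S phase sum at day 12 was 2.12 times that at day 9 in the wild-type (1.92 to 2.33) and 1.75 times in the knockout (1.603 to 1.90), and the G2/M sum 1.45 (1.34 to 1.58) and 1.69 (1.54 to 1.86) times. At least 1.5-fold higher at day 12 were 28 of 39 genes in the wild-type (12.3% of all genes) and 26 of 38 with 20 or more UMIs in the knockout (13.0%). The fit called 12 of the 38 members tested higher at day 12 and none lower, 9 of 17 S phase genes, 2 of 20 G2/M genes and Stmn1, beside 0.899% of all genes. DESeq2 called 2. Without 1 library of day 9, the fit held 1 library of that day and no term for genotype, so day and genotype could not be told apart. At day 9, 6 wild-type and 4 knockout NK cells held 50% of the UMIs of both lists, against 21 and 12 cells at day 12.

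The members called in NK cells came mainly from DNA replication. Dut stood at 78.0, 90.8, 186 and 203 CPM, a log2 change of 1.21 (SE 0.16, adjusted p = 0.00661). Tyms stood at 19.3, 29.8, 50.4 and 64.1 CPM, and Rrm2 at 12.1, 40.7, 62.0 and 80.3 CPM. In all 3 genes both day 12 libraries lay above both day 9 libraries. Clspn rose from 2.41 and 5.48 CPM to 27.8 and 25.2 CPM, on 3 and 7 UMIs at day 9, and Uhrf1 from 5.62 and 4.70 to 20.7 and 28.4 CPM. Pcna, Mcm5, Gins2 and Tk1 completed the S phase calls. Of the G2/M genes Top2a (26.5, 51.7, 123 and 130 CPM) and Birc5 (61.1, 43.9, 111 and 86.1 CPM) were called, as was Stmn1 (145, 138, 407 and 354 CPM). Mcm6 did not follow, at 65.1, 82.2, 60.1 and 53.0 CPM, nor did Ccnb1 at 27.3, 12.5, 13.5 and 16.3 CPM.

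The share of NK cells past either limit was 10.6%, 11.4%, 25.4% and 26.4%. The day 9 and day 12 intervals did not overlap within a genotype (6.51 to 16.1 against 20.7 to 30.5 in the wild-type, 7.64 to 16.1 against 20.6 to 32.8 in the knockout). Without thinning the shares were 30.2%, 22.5%, 25.3% and 30.5%, the wild-type order turned, and the intervals of the 2 days overlapped in both genotypes. At day 12, 159 wild-type and 66 knockout NK cells under 3000 UMIs were left out. Time and any difference in handling between the libraries of the 2 days cannot be told apart. By genotype no NK member was called (0.0246% of all genes were called lower), and none with DESeq2. All 17 S phase values for the knockout were above 0 with a median of 0.34, and 15 of the 20 G2/M values were below 0 with a median of -0.32. The median over all genes was 0.01, and none of these members passed the test.

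In dendritic cells the knockout held 0.692 (0.633 to 0.758) and 0.724 (0.676 to 0.774) of the wild-type S phase level at day 9 and day 12, and 0.499 (0.458 to 0.543) and 0.527 (0.493 to 0.563) of the G2/M level. At least 1.5-fold lower were 24 of 38 genes at day 9 (12.2% of all genes) and 27 of 39 at day 12 (10.8%). Both wild-type libraries lay above both knockout libraries for 29 of 39 genes, against 19.1% of all genes. Ube2c stood at 58.6, 22.8, 81.8 and 28.9 CPM, Top2a at 76.4, 27.9, 73.9 and 36.5 CPM, Cenpf at 17.8, 5.53, 17.8 and 5.78 CPM and Stmn1 at 233, 106, 188 and 115 CPM. The fit called no member by genotype, where 0.0108% of all genes were called lower. All 39 changes were below 0, with a median of -0.70 against 0.01 over all genes. The smallest adjusted p was 0.265 (Ube2c), and DESeq2 called none. With no filter on low counts the fit called 6. By day no member was called in either direction, where DESeq2 also called none and 0.0% of all genes were called higher.

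The makeup of the dendritic class differed between the libraries. Cells with Xcr1 or Clec9a UMIs, markers of conventional type 1 dendritic cells, made up 40.6%, 13.1%, 29.5% and 20.7% of it, and mature cells (Fscn1, Ccl22, Ccr7) 21.9%, 22.99%, 22.2% and 43.1%. The Xcr1 or Clec9a cells held more G2/M RNA than mature cells or cells with Cd209a. Their sums were 1014, 841, 1030 and 715 CPM, against 382, 147, 412 and 257 CPM in cells with Cd209a. Dendritic cells outside these types, 8, 16, 22 and 10 in number, held 44.7, 778, 1298 and 435 CPM. Within the Xcr1 or Clec9a cells the knockout held 0.830 (0.741 to 0.928) of the wild-type G2/M level at day 9 and 0.694 (0.637 to 0.755) at day 12, and within the Cd209a cells 0.384 (0.319 to 0.462) and 0.623 (0.549 to 0.706). The G2/M sums were thus lower in the knockout within both types. Their S phase ratios were 0.746 and 1.014 in the former and 0.707 and 0.761 in the latter. In mature cells the G2/M sums were 19.7, 191, 45.5 and 65.5 CPM, higher in the knockout at day 9 against 6 UMIs in the wild-type. The part of the makeup in the class result was not tested.

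In macrophages the G2/M genes went opposite ways on the 2 days. The knockout held 0.553 (0.502 to 0.611) of the wild-type G2/M level at day 9 and 1.52 times it (1.44 to 1.62) at day 12, while the S phase ratios were 0.788 (0.720 to 0.864) and 0.939 (0.888 to 0.992). At day 9, 22 of 39 genes were at least 1.5-fold lower (12.5% of all genes), 16 of them G2/M genes. At day 12, 13 of 39, all of G2/M, were at least 1.5-fold higher (8.16% of all genes). Kif11 stood at 4.55, 0.873, 1.503 and 3.49 CPM, Prc1 at 3.03, 2.29, 2.55 and 6.56 CPM, Mki67 at 7.58, 3.93, 8.04 and 13.0 CPM and Birc5 at 23.9, 9.72, 17.2 and 25.0 CPM. These are low levels, from 4 to 71 UMIs per G2/M gene in the wild-type at day 9, where 6 of 264 cells held 50% of the UMIs of both lists. Melanoma marker genes summed to 6.82, 63.2, 17.2 and 22.0 CPM in the macrophage class, and their part in these ratios was not tested.

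The share of macrophages past either limit was 5.68%, 2.48%, 5.04% and 5.11%, against 0.926% to 2.86% in mature dendritic cells, and the day 12 values differed by less than their counting error. Without thinning they were 20.5%, 15.5%, 15.9% and 23.35%, the last 2 with intervals apart (14.2 to 17.7 and 20.7 to 26.2), against 5.51% to 22.2% in mature dendritic cells. By genotype no macrophage member was called (0.743% of all genes were called lower), and none with DESeq2. By day Stmn1 alone was called higher at day 12, at 45.5, 26.3, 56.4 and 70.9 CPM (log2 change 0.93, SE 0.23, adjusted p = 0.0374), beside 3.01% of all genes. DESeq2 did not call it, nor did the fits with RLE size factors, gate limits of 4 UMIs or a mitochondrial limit of 5%.

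**Figure D5:**
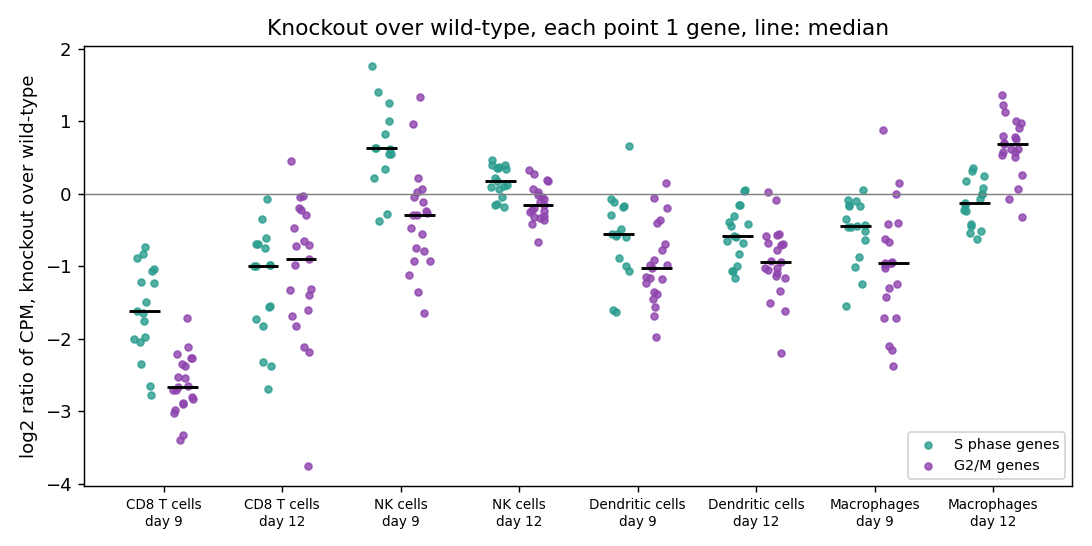
Log2 ratio of knockout to wild-type CPM for each gene with 20 or more UMIs, by class and day, S phase genes in green and G2/M genes in purple, with the median as a line. CD8 T cells of day 9 lie lowest (medians -1.62 and -2.66), the medians of dendritic cells lie below 0 on both days, and the G2/M genes of macrophages change side between day 9 (median -0.96) and day 12 (0.68).

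Whether the genotype difference of CD8 T cells differed from that of another class was tested by an interaction term. Against macrophages 2 of 39 members passed, beside 0.152% of all genes. Mki67 had a log2 difference of -2.35 (SE 0.44, adjusted p = 0.0379), and Prc1 one of -2.999 (SE 0.59, adjusted p = 0.0477). In the separate fits of each class Mki67 had -2.72 in CD8 T cells and 0.13 in macrophages, and Prc1 -2.85 and 0.79. Neither stayed past the threshold without the wild-type or knockout library of day 9 or the knockout library of day 12, and Prc1 was also lost without the wild-type library of day 12. All 39 differences were below 0, with a median of -1.34 against -0.02 over all genes. Against NK cells no member passed (0.00949% of all genes were called lower), with a median of -1.44 against -0.01 over all genes. Against dendritic cells none passed either (0.0% of all genes), with a median of -0.79 against -0.06 over all genes. With DESeq2 the 3 comparisons called 2, 0 and 0 members, and with no filter on low counts 25, 19 and 3. Without the wild-type library of day 12 the comparison with NK cells called 8. For the other members a CD8 T genotype difference larger than that of another class was not shown.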

How the data were processed

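The authors deposited raw UMI counts for every gene and cell barcode; Cell Ranger 2.0.2 and the build mm10 are named in the submitters' processing notes. Cells with at least 200 genes, at most 10% mitochondrial and at most 5% haemoglobin UMIs were kept. Scrublet (scanpy 1.11.5) marked 3, 5, 1 and 15 cells of the 4 libraries by its own thresholds, too few to rely on, so its top scores were removed at 0.8% per 1000 barcodes. Classes were gated per cell at 2 marker UMIs, with no cell cycle gene used; 29 clusters made without cell cycle genes served as an alternative. Class sums were tested with edgeR 4.0.16 (R 4.3.3; quasi-likelihood test, TMM scaling, Benjamini-Hochberg over all genes, threshold 0.05), with DESeq2 1.42.0 as an alternative. The genotype and day fits had 1 residual degree of freedom, the class contrasts 9 and the interaction 6. The test was checked on simulated data. Libraries held 1778, 3749, 3684 and 2059 barcodes and 21448114, 33902064, 29662903 and 18783490 UMIs. Ratios used genes with 20 or more UMIs, and intervals cover counting error only. Each group was 1 library of pooled mice, so no spread between libraries of a group was measured. The p-values of the genotype and day fits rest on 1 residual degree of freedom and a spread borrowed across genes. Genes were named because they are members, or as up to 4 called genes of each related list with the most UMIs; promoters were printed for the 2 S phase and 2 G2/M members with a motif and the most UMIs. The members and lists were chosen with earlier results of these data known.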

Additional observations from a re-analysis of the deposited data

Results flagged for a closer look

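The genotype difference of CD8 T cells differed from that of macrophages by the test of the difference itself for Prc1, with a log2 difference of -2.999, and for Mki67, with -2.35. The adjusted p of the main edgeR test was 0.0477 and 0.0379, and over the alternatives it ranged from 2.75e-06 to 0.531 for Prc1 and from 6.15e-07 to 0.341 for Mki67.

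Sums of the 21 G2/M genes moved in opposite directions in groups under the same contrast, with counting intervals that left out 1, and these differences were not tested. In CD8 T cells the ratio of day 12 to day 9 was 0.674 in the wild-type and 2.04 in the knockout, where 3 of the 65 cells of day 12 held 50% of the UMIs of both lists. With classes from clusters the G2/M share of those UMIs was 42.6% and 42.4% in the knockout at day 9 and day 12, against 36.25% and 56.85% with gated classes. In macrophages the ratio of knockout to wild-type was 0.553 at day 9 and 1.52 at day 12, and the ratio of day 12 to day 9 was 0.789 in the wild-type and 2.17 in the knockout.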

How the results depend on the processing

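The count of CD8 T members called by genotype, 34 in the main fit, was 14 with DESeq2 and 10 with no term for day, and 0 to 35 when 1 library was left out. Over the other left-out libraries, calls ran from 0 to 12 for day in CD8 T cells (the 12 were higher, without the wild-type library of day 9), 4 to 14 for day in NK cells, 0 to 1 for day in macrophages and for genotype in NK cells, 0 to 3 for genotype in dendritic cells, 23 to 36 against dendritic cells, 0 to 15 against NK cells, and, for the interaction, 0 to 8 with NK cells and 0 to 3 with macrophages. Day calls in NK cells, CD8 T cells and macrophages were 2, 0 and 0 with DESeq2, 7, 0 and 0 with no term for genotype, and 20, 2 and 4 with no filter on low counts. No filter also gave 6 for genotype in dendritic cells, 15 against NK cells, and 19, 3 and 25 for the interaction with NK cells, dendritic cells and macrophages. Gate limits of 4 UMIs gave 0 for both day counts (CD8 T cells, macrophages), 14 against NK cells, 0 for the macrophage interaction and a G2/M share of 62.3% in the knockout of day 12. Classes from clusters gave 3 and 11 for those day counts, 0 for that interaction and G2/M shares of 53.7%, 42.6%, 54.9% and 42.4% in CD8 T cells. The day count of macrophages was 0 and the interaction 1 with RLE size factors or with doublets kept, and both were 0 without cells with melanoma UMIs. A mitochondrial limit of 5% gave 0 for both day counts. Thinned cells gave 0 for day in CD8 T cells, 2 in macrophages and 4 against NK cells. Of the 34 genotype calls in CD8 T cells, 33 were called again in thinned cells. Shares of CD8 T cells past the limits were 77.2% and 24.5% at day 9 unthinned, 67.2%, 22.5% and 43.35% (wild-type of day 12) at a limit of 2 UMIs, and 43.4% and 5.56% at a limit of 5. The cause was not tested. Libraries could not be paired between genotypes by replicate, because each group has 1 library. Day was a term of the main genotype fit, and classes were compared within libraries.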

Other observations

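CD4 T cells, gated by Cd4 UMIs and few in number (56, 66, 72 and 27 cells in the order wild-type day 9, knockout day 9, wild-type day 12 and knockout day 12), held 893, 951, 938 and 886 CPM of the 17 S phase genes. Their G2/M sums were 354.5, 985, 852 and 1309 CPM, lowest in the wild-type of day 9. The share of CD4 T cells past either phase limit was 21.4%, 23.8%, 25.9% and 26.3%, with counting intervals that overlapped throughout. T cells assigned to neither the CD8 nor the CD4 class gave 17.7%, 10.0%, 13.8% and 13.99%.

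Of all cells past a limit, CD8 T cells made up 76.95% in the wild-type of day 9, 18.55% in the knockout of day 9, 17.4% in the wild-type of day 12 and 3.5% in the knockout of day 12, while they made up 42.8%, 10.5%, 6.53% and 3.07% of all cells with at least 3000 UMIs. Plasmacytoid dendritic cells passed a limit in 3 of 230 cells of the knockout of day 9 (1.30%), and monocytes with Ace UMIs in 1 of 96 (1.04%).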
